A study of Mus musculus with 30 samples.

Results

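The 10 genes described here carry zinc and iron across membranes or hold these metals inside the cell, and they were followed through mouse epiblast stem cells (EpiSCs) and the definitive endoderm made from them. They were the zinc importers Slc39a14, Slc39a8 and Slc39a10, the zinc exporter Slc30a1, the metallothioneins Mt1 and Mt2, the transferrin receptor Tfrc, the iron exporter Slc40a1 (ferroportin), the iron importer Slc11a2 (DMT1) and the ferritin heavy chain Fth1. They were named individually, with differences between endoderm and EpiSCs in these data already in view, and all 10 were among the 29555 genes of the deposited tables. The levels in endoderm and EpiSCs are therefore a description here, and tests are given for the comparisons between mouse strains and for other genes of the same pathways. Earlier results of these data were also known when those comparisons and genes were chosen, so their p-values are not independent of the choice.

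The series profiled RNA by poly(A) RNA-seq (19 samples) and open chromatin by ATAC-seq (11 samples). EpiSCs are primed pluripotent cells of the post-implantation epiblast. They were kept on feeder cells in N2B27 medium containing Fgf2, ActivinA and the Wnt inhibitor NVP-TNKS656, at passages 5 to 10, and were lifted with collagenase. They came from C57BL/6 (B6) mice (5 RNA and 4 ATAC libraries), from B6.129 F1 hybrids (3 RNA libraries), from PWK/PhJ, a wild-derived strain (3 RNA and 2 ATAC libraries), and from DBA/2J (1 RNA and 1 ATAC library). Definitive endoderm, the precursor of gut, liver and pancreas, was made from B6 EpiSCs (4 RNA and 4 ATAC libraries) with CHIR99201 and ActivinA for 16 h and then ActivinA and LDN193189 for 24 h, in a procedure given as 46 h in all. CXCR4+ cells were then taken by magnetic sorting, so the endoderm libraries are enriched for cells that carried that receptor, and no sort is given for EpiSCs. In PWK/PhJ (RNA and ATAC) and in F1 (RNA), 1 library each has a column name that gives its group but matches no replicate label, and it is called unmatched here. The 3 PWK/PhJ endoderm samples were not analysed here. The labels number the samples as biological replicates without saying whether a number stands for a line, an animal or a culture, so the p-values measure the spread between these samples only, which may be technical.

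Zinc enters the cytosol through ZIP (SLC39) proteins and leaves it, into organelles or out of the cell, through ZnT (SLC30) proteins, of which SLC30A1 is the main one at the plasma membrane. Metallothioneins are small cysteine-rich proteins that bind zinc, and the zinc sensor MTF1 raises their transcription through metal response elements (MREs) in promoters. Iron arrives on transferrin through TFRC, is moved out of endosomes by SLC11A2, is stored in ferritin shells built of FTH1 and FTL1, and leaves through SLC40A1. SLC39A14 and SLC39A8 also carry iron and manganese, which joins the zinc and iron branches. When iron is scarce, iron regulatory proteins stabilise Tfrc mRNA and hold back translation of Fth1 and Slc40a1 mRNA, and translation is not measured by RNA-seq.

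Promoter windows are shown for the metal-responsive genes Mt1, Mt2 and Slc30a1, and for the Slc39a8 start that lies in a peak that differed between strains. They are the 250 bases before a transcript start listed by RefSeq on GRCm38.p6, the C57BL/6J assembly, with matches to the MRE letters TGCACNC or TGCGCNC on either strand in capitals. The Slc30a1 window is chr1:191906531-191906780 on the plus strand, that of Mt1 is chr8:94178839-94179088 on the plus strand, that of Mt2 is chr8:94172368-94172617 on the plus strand, and that of Slc39a8 is chr3:135825407-135825656 on the plus strand.
Mt1: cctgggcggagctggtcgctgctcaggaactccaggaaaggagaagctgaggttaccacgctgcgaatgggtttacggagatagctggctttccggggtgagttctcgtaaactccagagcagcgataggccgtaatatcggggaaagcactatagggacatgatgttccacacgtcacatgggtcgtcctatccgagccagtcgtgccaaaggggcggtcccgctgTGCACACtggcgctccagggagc
Mt2: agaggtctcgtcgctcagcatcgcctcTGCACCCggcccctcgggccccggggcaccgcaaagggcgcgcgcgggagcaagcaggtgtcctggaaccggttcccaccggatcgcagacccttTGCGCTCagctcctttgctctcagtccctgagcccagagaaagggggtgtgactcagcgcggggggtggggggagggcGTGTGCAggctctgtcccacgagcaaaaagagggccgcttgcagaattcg
Slc30a1: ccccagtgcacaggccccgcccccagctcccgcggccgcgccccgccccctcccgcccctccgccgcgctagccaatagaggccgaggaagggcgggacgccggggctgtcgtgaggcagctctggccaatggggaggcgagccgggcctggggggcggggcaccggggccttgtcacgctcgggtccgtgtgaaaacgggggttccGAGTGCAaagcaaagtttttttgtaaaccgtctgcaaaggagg
Slc39a8: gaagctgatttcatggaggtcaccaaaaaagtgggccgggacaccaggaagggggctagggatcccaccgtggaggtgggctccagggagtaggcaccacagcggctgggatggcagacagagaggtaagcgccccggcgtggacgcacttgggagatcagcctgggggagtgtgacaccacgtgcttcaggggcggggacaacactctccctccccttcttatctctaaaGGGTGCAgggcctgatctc
The first 30 bases after the listed Mt1 start hold another pair of matches.
Mt1 after the start: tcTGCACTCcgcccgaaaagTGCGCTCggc

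Counting the 250 bases before and the 50 bases after the start, the Mt2 window held 4 MRE matches, that of Mt1 held 3, that of Slc30a1 held 2, and that of Slc39a8 held 1. Of all 32851 windows of this length, 25.7% held at least 1 match, 7.11% at least 2 and 1.97% at least 3. The matches not seen in the printed stretches lie after the start. In Mt1 the matches lay at bases -23 to -17, 3 to 9 and 21 to 27 counted from the start. The Mt1 gene is annotated from chr8:94178883, inside its window, so most of the printed Mt1 bases lie within the annotated gene. So do the end of the Slc30a1 window (gene from chr1:191906697) and all of the Slc39a8 window (gene from chr3:135816882). RefSeq windows were at hand for 7 of the 10 genes (11 windows in all). One of the Tfrc windows held 2 overlapping matches, and the windows of Slc39a10 and Fth1 and the other windows of Tfrc and Slc39a8 held none. A match of letters is a description of the sequence and not a measured binding site.

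The RNA libraries of B6 EpiSCs and endoderm held 22829536 to 66563933 counts, and the ATAC libraries 3751526 to 9571127 counts in peaks. All 8 definitive endoderm markers rose in endoderm by edgeR's test (summed level 5882 to 12620 CPM, the count scaled to library size, against 32.9 to 328 in B6 EpiSCs), and Pou5f1, the core pluripotency factor, was at 2.46 to 37.8 CPM in endoderm and 982 to 1331 CPM in EpiSCs. Cxcr4, 1 of the 8, encodes the receptor by which the endoderm cells were sorted, so its rise is no separate sign of their identity. Of 8 primed pluripotency markers, 6 fell and 1 rose, and of 4 tested mesoderm markers, 3 fell and 1 rose. The summed level of the mesoderm list was nevertheless higher in endoderm, at 38.2 to 68.9 CPM against 20.5 to 31.7 CPM in B6 EpiSCs. Most of that sum was Pdgfra in endoderm, at 27.4 to 62.2 CPM against 4.04 to 13.7 CPM in EpiSCs. Of 5 tested visceral endoderm markers, 2 rose, 0 fell and 3 were not called. The 8 markers of that list summed to at most 19.1 CPM in endoderm and 6.64 CPM in B6 EpiSCs. Ttr and Afp were at or near 0, while Apoa1 was at 1.92 to 14.1 CPM in endoderm and 0.0739 to 0.645 CPM in EpiSCs. Feeder fibroblast markers were uneven: the 8 genes summed to 58.4 to 73.0 CPM in 3 endoderm libraries and 235 CPM in endoderm replicate 2, and to 66.4, 1122, 385, 1033 and 2650 CPM in B6 EpiSC replicates 1, 2, 4, 44 and 51. In endoderm replicate 51, genes on chromosome 8, which carries Mt1 and Mt2, stood 0.51 log2 units above those of the other endoderm libraries (median of 714 genes), where no other chromosome of that library was off by more than 0.074. In bulk libraries, fewer cells of a type and less RNA per cell cannot be told apart.

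In endoderm, RNA of the importer Slc39a14 was low and RNA of ferroportin and the ferritin heavy chain was high, while the transferrin receptor was low. Of the 10 genes, Mt1, Slc40a1 and Fth1 were called higher and Slc39a14 and Tfrc lower (adjusted p under 0.05, edgeR), and 5 were not called. In this comparison 62% of the 14085 genes tested were called (31.5% higher and 30.6% lower), and since the genes were chosen with it in view nothing is read from their count. The median change of the 10 was 0.16 log2 units, beside -0.01 over all genes tested. For 4 of the 10 the groups did not overlap, as for 55.6% of all genes tested.

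**Figure D1:**
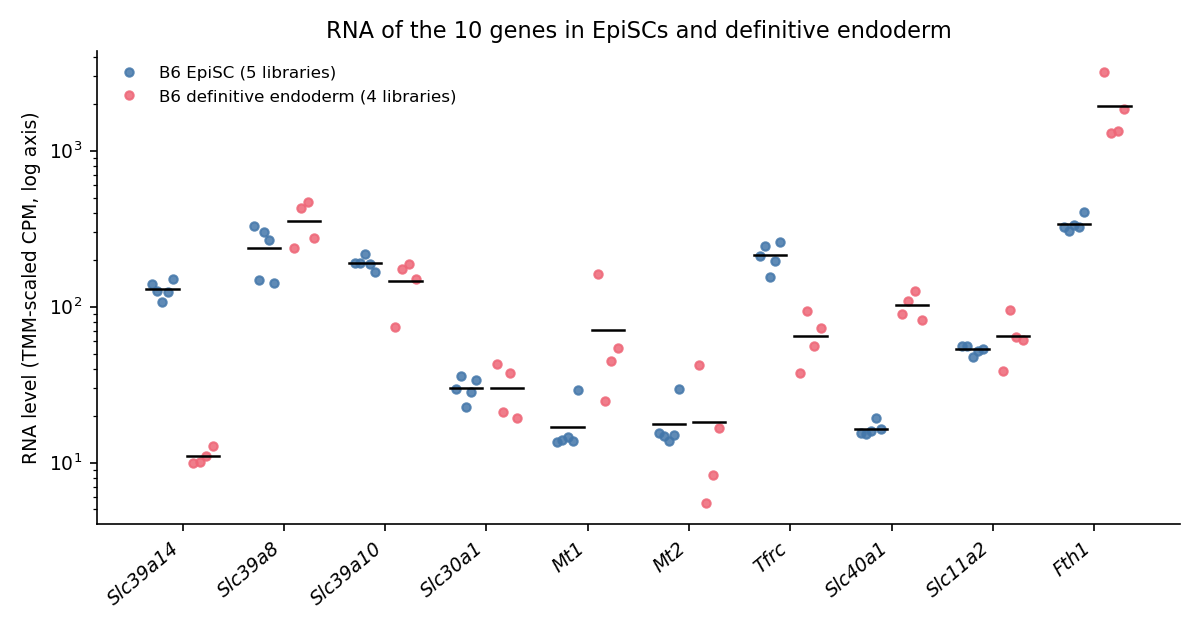
RNA level of each gene (TMM-scaled CPM, log axis) in 5 B6 EpiSC and 4 B6 definitive endoderm libraries, with a bar at each group's mean. Slc39a14 and Tfrc sit lower in every endoderm library than in any EpiSC library, Slc40a1 and Fth1 higher, and the Mt1 and Mt2 points are spread widely in endoderm.

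Slc39a14 encodes ZIP14, a plasma membrane importer of zinc and of iron not bound to transferrin. Its level was 9.97, 10.1, 11.0 and 12.8 CPM in endoderm replicates 2, 4, 44 and 51, and 140.3, 126.8, 107.5, 123.7 and 150.2 CPM in EpiSC replicates 1, 2, 4, 44 and 51. Every endoderm library was far below every EpiSC library. The means were 11.0 ± 1.32 CPM (SD, n = 4) and 129.7 ± 16.3 CPM (SD, n = 5), a difference of -3.56 log2 units (SE 0.16), or 11.8-fold. Feeder markers were lower in endoderm than in 4 of the 5 EpiSC libraries, all but replicate 1, and their part in this difference was not tested.

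Slc39a8 encodes ZIP8, the closest relative of ZIP14 in the family and likewise a carrier of zinc, manganese and iron. Its endoderm levels were 238, 428, 467 and 277 CPM in replicates 2, 4, 44 and 51. Its EpiSC levels were 329, 149, 301, 267 and 142 CPM in replicates 1, 2, 4, 44 and 51. The groups overlapped, and in both states the libraries numbered 2 and 51 were the lowest. The difference was 0.57 log2 units (SE 0.30) and was not called. Fitting same-numbered libraries as pairs (the replicate block) gave 0.74 log2 units (SE 0.16, adjusted p = 0.0070, edgeR), past the threshold. That fit also left out EpiSC replicate 1, the highest EpiSC library, which has no endoderm library of its number. Without pairing, leaving out each library in turn gave 0.41 to 0.73 log2 units, so 0.74 is not the effect of pairing alone. Whether equal numbers mark pairs was not established.

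Slc39a10 encodes ZIP10, another plasma membrane zinc importer. In endoderm it was at 174.8, 188.1 and 149.6 CPM in replicates 4, 44 and 51 but at 74.2 CPM in replicate 2, and in EpiSCs it ranged from 167.0 to 216.9 CPM. The groups overlapped, and the difference of -0.38 log2 units (SE 0.24) was not called. Of the 3 importers, only Slc39a14 had groups that did not overlap.

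Slc30a1 encodes ZnT1, which moves zinc out of the cell. Endoderm replicates 2 and 44 were at 42.8 and 37.4 CPM and replicates 4 and 51 at 21.2 and 19.3 CPM, around the EpiSC range of 22.6 to 36.1 CPM. The group means were 30.2 ± 11.7 CPM (SD, n = 4) and 30.1 ± 5.18 CPM (SD, n = 5), a difference of 0.00 log2 units (SE 0.26).

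The metallothioneins varied more between endoderm libraries than any of the transporters. Mt1 was at 161.2, 24.7, 44.8 and 54.0 CPM in endoderm replicates 2, 4, 44 and 51, and at 13.6 to 14.6 CPM in 4 EpiSC libraries with replicate 51 at 29.1 CPM. The Mt1 groups overlapped, since endoderm replicate 4 was below EpiSC replicate 51. The difference was 2.06 log2 units (SE 0.49), and 1.28 without endoderm replicate 2. Mt2, its neighbour on chromosome 8, was at 42.2, 5.51, 8.37 and 16.7 CPM in the same endoderm libraries and at 13.8 to 29.7 CPM in EpiSCs. Replicate 2 was the highest endoderm library for both genes, and the Mt2 groups overlapped, with a difference of 0.03 log2 units (SE 0.53) that became -0.79 without replicate 2. Endoderm replicate 2 also had the highest feeder marker sum in endoderm, and EpiSC replicate 51 the highest in EpiSCs. The part of feeder RNA, and of the chromosome 8 offset in endoderm replicate 51, in these values was not tested. Mt1 and Mt2 are close copies, and how reads shared by both were counted is not given in the sources used here.

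Tfrc encodes the receptor that takes up iron-loaded transferrin. It was at 37.6, 93.3, 55.9 and 72.8 CPM in endoderm replicates 2, 4, 44 and 51, and at 153.9 to 261.1 CPM in EpiSCs. All endoderm libraries lay below all EpiSC libraries. The difference was -1.71 log2 units (SE 0.26), or 3.28-fold lower. Slc11a2, which moves iron from the endosome to the cytosol after uptake by that receptor, was at 38.7, 94.8, 63.5 and 61.2 CPM in endoderm and 47.5 to 56.3 CPM in EpiSCs. It differed by 0.28 log2 units (SE 0.22), with overlap, and endoderm replicate 2 was the lowest library for both uptake genes. Without that library the Slc11a2 difference was 0.47 log2 units and was called.

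Slc40a1, the only known vertebrate exporter of iron, was at 89.5, 109.2, 126.6 and 82.0 CPM in endoderm replicates 2, 4, 44 and 51. In EpiSCs it stayed between 15.3 and 16.3 CPM in 4 libraries and was at 19.3 CPM in replicate 44. The groups did not overlap, and the difference was 2.63 log2 units (SE 0.16), or 6.17-fold. Fth1, the ferritin subunit with the iron-oxidising centre, was at 3187, 1307, 1346 and 1855 CPM in endoderm and 305 to 405 CPM in EpiSCs. It too was higher in every endoderm library, by 2.51 log2 units (SE 0.26), with replicate 2 again the highest. The Fth1 value is uncertain in that the gene has processed copies. Fth-ps2, a copy with a row of its own, reached 0.49 CPM, and the Fthl17 genes at most 0.037 CPM. The part of feeder RNA in the Tfrc, Slc40a1 and Fth1 differences was not tested either.

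The rest of the 2 pathways was followed through 5 lists of genes other than the 10, which were drawn up with earlier results of these data known. Of 9 tested ZIP genes, 5 rose in endoderm, 1 fell and 3 were not called, with a median change of 1.06 log2 units. Slc39a4, the importer of dietary zinc, rose from 2.42 ± 1.78 (SD, n = 5) to 62.8 ± 19.3 CPM (SD, n = 4; 4.70 log2 units, SE 0.80, adjusted p = 0.00050, edgeR). Slc39a2 rose by 4.26 log2 units (SE 0.43) and Slc39a11 by 2.50 (SE 0.15). Slc39a1, a widely expressed plasma membrane importer, was the 1 that fell, from 75.6 ± 6.70 (SD, n = 5) to 3.55 ± 1.62 CPM (SD, n = 4; -4.42 log2 units, SE 0.32, adjusted p = 2.6e-06, edgeR). The ZIP family thus changed in both directions, and Slc39a1 fell beside Slc39a14.

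Of 7 tested ZnT genes, 3 rose, 1 fell and 3 were not called (median 0.34 log2 units). Slc30a6 and Slc30a5, exporters into the Golgi, rose by 2.03 (SE 0.17) and 0.95 log2 units (SE 0.18), and Slc30a9 rose by 0.75 (SE 0.14). Slc30a4, an exporter into vesicles, fell by 1.79 log2 units (SE 0.17). Mtf1, the gene of the zinc sensor, was the only other tested gene of the metallothionein list and fell by 0.47 log2 units (SE 0.14, adjusted p = 0.014, edgeR). Mt3 and Mt4 were below the filter on low counts.

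Iron and haem transport genes changed both ways. Of 13 tested, 3 rose, 3 fell and 7 were not called (median -0.50 log2 units). Heph, a ferroxidase that works with ferroportin, rose by 1.98 log2 units (SE 0.34), Slc46a1, a folate and haem carrier, by 1.58 (SE 0.37), and Mcoln1, a lysosomal channel, by 1.39 (SE 0.20). Slc25a37 (mitoferrin 1), which brings iron into mitochondria, fell from 68.5 ± 4.92 (SD, n = 5) to 11.1 ± 1.98 CPM (SD, n = 4; -2.63 log2 units, SE 0.16, adjusted p = 1.2e-06, edgeR). The metalloreductase Steap2 fell by 2.23 log2 units (SE 0.34) and the haem exporter Flvcr1 by 1.22 (SE 0.33).

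Of 12 tested genes of iron storage and its regulation, 4 rose, 5 fell and 3 were not called (median 0.25 log2 units). Ncoa4, the receptor that delivers ferritin to lysosomes, rose from 111.2 ± 24.1 (SD, n = 5) to 417 ± 121 CPM (SD, n = 4; 1.91 log2 units, SE 0.22, adjusted p = 4.5e-05, edgeR). The ferritin light chain Ftl1 rose by 1.47 log2 units (SE 0.29), and Pcbp1, an iron chaperone for ferritin, rose by 0.95 (SE 0.14). Pcbp2, its relative, fell by 3.52 log2 units (SE 0.16), Ireb2, which encodes iron regulatory protein 2, by 1.43 (SE 0.18), and Hmox1, which frees iron from haem, by 1.40 (SE 0.25). Both ferritin chains were therefore higher in endoderm. Ftl1, Pcbp1 and Pcbp2 have close copies in the genome, so the share of their reads counted elsewhere is uncertain. The 5 lists were counted against a background in which 31.5% of genes were called higher and 30.6% lower.

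**Figure D2:**
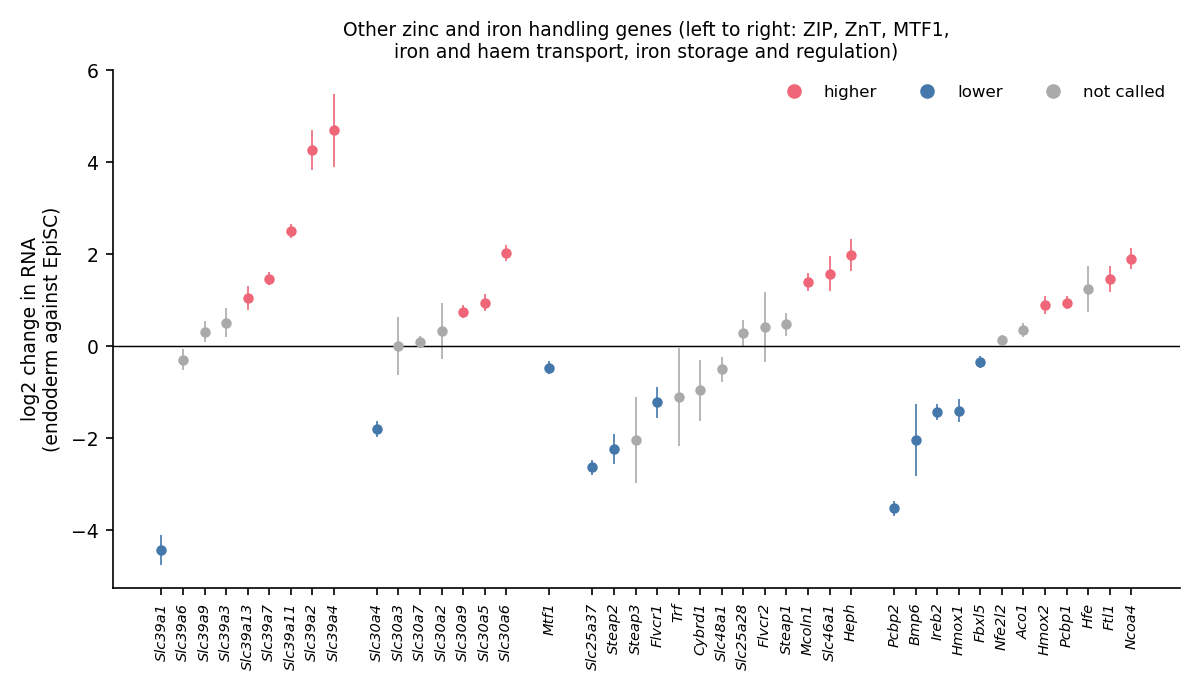
Change in RNA (log2, endoderm against EpiSC) of each tested zinc or iron gene outside the 10, grouped by list from left to right, with bars of 1 SE and colour for the call. Slc39a1 (-4.42) and Slc39a4 (4.70) mark the ends of the ZIP group, and each of the other lists of 7 or more genes also spans 0.

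ATAC-seq peaks in the genes or within 10 kb of either end numbered 66 of 158917 in the table for endoderm and EpiSCs. Of the 56 that passed the filter on low counts, 17 were higher in endoderm, 13 lower and 26 not called. Of all 113870 tested peaks, 57.6% were called (32.6% higher and 25.0% lower), 53.8% had groups that did not overlap, and the median change was -0.07 log2 units near the genes and -0.01 overall. This comparison, too, was in view when the genes were chosen, so nothing is read from the counts.

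**Figure D3:**
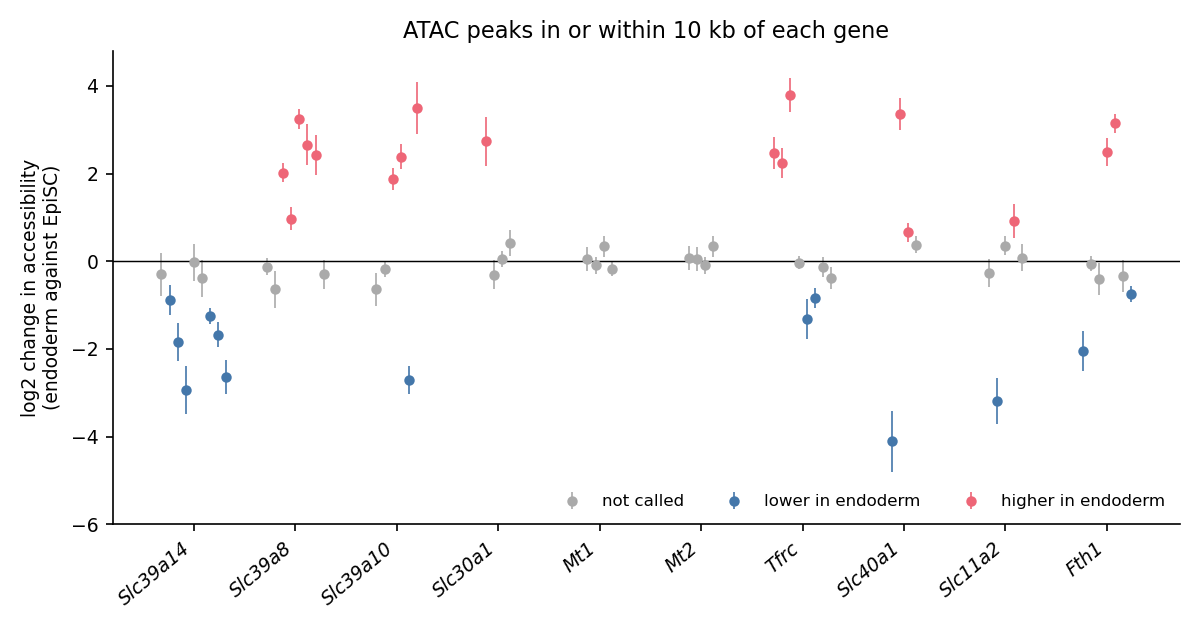
Change in accessibility (log2, endoderm against EpiSC) of each tested peak in or within 10 kb of each gene, with bars of 1 SE, ordered along the chromosome within a gene and coloured by call. Around Slc39a14 no peak is called higher and 6 are lower, around Slc39a8 5 are higher and none lower, and around Mt1 and Mt2 none is called.

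Around Slc39a14, 6 of 9 tested peaks were lower and none was higher. The most accessible peak, chr14:70351369-70351744 at the high-coordinate end of the gene, was at 13.4, 15.0, 11.7 and 9.80 CPM in endoderm replicates 2, 4, 44 and 51 and at 28.0, 27.5, 32.6 and 31.0 CPM in EpiSC replicates 1, 4, 44 and 51. Each endoderm library was below each EpiSC library, and the difference was -1.24 log2 units (SE 0.18). Just outside the gene, chr14:70352305-70352507 was at 1.68 ± 0.85 CPM in endoderm and 10.2 ± 3.88 CPM in EpiSCs (SD, n = 4 each; -2.64 log2 units, SE 0.39). RNA and peaks of this gene were thus low together in endoderm.

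Around Slc39a8 the called peaks went the other way from those of Slc39a14. Of 8 tested peaks, 5 were higher, 0 lower and 3 not called. The most changed of the well-covered ones, chr3:135828089-135828294 inside the gene, was at 27.6, 30.4, 38.9 and 29.1 CPM in endoderm and 3.04, 4.41, 3.06 and 2.48 CPM in EpiSCs (3.24 log2 units, SE 0.23). The peak over the second listed start, chr3:135825486-135825670, which overlaps the Slc39a8 window printed above and was chosen after its values were seen, was at 14.9 to 23.1 CPM in endoderm and 16.8 to 22.5 CPM in EpiSCs (-0.12 log2 units, SE 0.19). The levels at the start overlapped between the states, while those at the site inside the gene did not. Around Slc39a10, 3 of 6 tested peaks were higher and 1 lower, both kinds inside the gene. The peak chr1:46888035-46888369 rose by 2.39 log2 units (SE 0.28) and chr1:46894388-46894642 fell by 2.71 (SE 0.33).

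At the metal-responsive promoters no change in accessibility was called. The peak just before the Slc30a1 start, chr1:191906445-191906777, was at 17.9 to 20.8 CPM in endoderm and 16.3 to 22.7 CPM in EpiSCs, and it also lies in the neighbouring non-coding gene 1700034H15Rik. The peak over the Mt1 start, chr8:94178912-94179295, was at 20.2, 15.8, 20.8 and 27.7 CPM in endoderm and 28.3, 22.3, 21.9 and 16.7 CPM in EpiSCs (-0.09 log2 units, SE 0.20). The peak over the Mt2 start, chr8:94172423-94172859, differed by 0.06 log2 units (SE 0.27). None of the 4 tested peaks near Mt1, nor of the 4 near Mt2 (3 of them the same peaks), was called by edgeR or by DESeq2, and at an unadjusted p under 0.05 the counts were 0 and 0. Mt1 RNA was higher in endoderm while the peak over its start was not.

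Among the iron genes, the peaks over the starts of Tfrc (chr16:32608693-32609076) and Fth1 (chr19:9982441-9982768) differed by -0.03 (SE 0.14) and -0.05 log2 units (SE 0.16), although the RNA of both genes differed. A peak 606 bases before Tfrc, chr16:32608119-32608290, was at 8.44 to 11.6 CPM in endoderm and 0.31 to 1.02 CPM in EpiSCs (3.79 log2 units, SE 0.39), in the direction opposite to Tfrc RNA. Beyond the other end of Tfrc, chr16:32635382-32635531 fell by 0.84 log2 units (SE 0.23). Near Fth1, chr19:9987094-9987565 was at 38.9, 44.4, 42.5 and 50.7 CPM in endoderm and 3.84, 7.01, 5.61 and 3.10 CPM in EpiSCs (3.15 log2 units, SE 0.22), and it lies in the neighbouring gene Best1. Also in Best1, chr19:9993054-9993333 fell by 0.74 log2 units (SE 0.18). Across the 6 peaks that covered a listed start of a gene among the 10, differences ranged from -0.18 to 0.06 log2 units.

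The peak at the high-coordinate end of Slc40a1, chr1:45925882-45926502, was at 23.3 to 34.0 CPM in endoderm and 15.3 to 31.0 CPM in EpiSCs, and its difference of 0.38 log2 units (SE 0.19) was not called. Beyond the other end, near the gene model Gm18303, chr1:45905124-45905351 was at 16.1, 20.2, 18.2 and 11.8 CPM in endoderm and 2.40, 2.40, 0.51 and 0.62 CPM in EpiSCs (3.36 log2 units, SE 0.37). Slc40a1 RNA and this peak were both higher in every endoderm library than in any EpiSC library of their assay. The peak was named as the largest called rise near the gene, so its direction was set by that choice. Of 4 tested peaks near Slc40a1, 2 were higher, 1 lower and 1 not called. At Slc11a2, chr15:100422944-100423114 differed by 0.35 log2 units (SE 0.21) without a call. A weaker peak, chr15:100424082-100424201, which also overlaps Gm5475, was 0.91 log2 units higher (SE 0.39), a call that was lost under the other scalings, under DESeq2 and on leaving out any of 7 of the 8 libraries.

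The strain comparisons stay within EpiSCs, and here the 10 genes were tested, although these results too were known beforehand. PWK/PhJ and F1 libraries were both set against the same B6 EpiSC libraries, so the 2 comparisons share their controls. In PWK/PhJ against B6 EpiSCs, 1 of the 10 genes was higher (Slc40a1), 3 were lower (Slc39a8, Slc39a14 and Slc39a10) and 6 were not called. Among all 14822 genes tested, 26.5% were called (12% higher and 14.5% lower), and 32.1% did not overlap between the groups, as 4 of the 10 did not. The count over all genes fell from 3923 to between 2446 and 2462 on leaving out any 1 of the PWK/PhJ libraries. The 3 lower genes were the zinc importers among the 10.

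Slc39a8 was the gene of the 10 with the widest difference between strains. It was at 11.1, 7.19 and 9.06 CPM in the 3 PWK/PhJ libraries, and at 344.8, 153.3, 308.2, 273.5 and 144.5 CPM in B6 replicates 1, 2, 4, 44 and 51. The PWK/PhJ libraries were all far below the lowest B6 library. The means were 9.11 ± 1.95 CPM (SD, n = 3) and 244.8 ± 91.2 CPM (SD, n = 5), a difference of -4.74 log2 units (SE 0.36, adjusted p = 7.5e-06, edgeR), or 26.7-fold. It stayed past the threshold under all alternatives run. The F1 libraries were at 207.7, 167.1 and 220.4 CPM and the DBA/2J library at 162.9 CPM, all inside the B6 range.

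Accessibility at the Slc39a8 start differed in the same direction. The peak chr3:135825466-135825670 was at 10.3 and 9.33 CPM in the PWK/PhJ libraries and at 16.5, 22.0, 20.6 and 22.2 CPM in B6 replicates 1, 4, 44 and 51. The groups did not overlap, and the difference was -1.03 log2 units (SE 0.24, adjusted p = 0.018, edgeR). It missed the threshold without the unmatched PWK/PhJ library (-0.99, adjusted p = 0.12) or without B6 replicate 4 (-0.98, adjusted p = 0.073). The DBA/2J library was at 26.4 CPM, above the B6 range. Of 7 tested peaks near Slc39a8 this was the 1 called. The median difference of the 7 was -1.21 log2 units, beside 0.04 over all peaks tested, so lower values were not confined to the start. At an unadjusted p under 0.05 there were 4 of the 7, and the share of all peaks at that threshold is not given here. The submitters' processing notes name 1 genome build for all strains, and the part of sequence differences between PWK/PhJ and that build in these values was not tested.

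**Figure D4:**
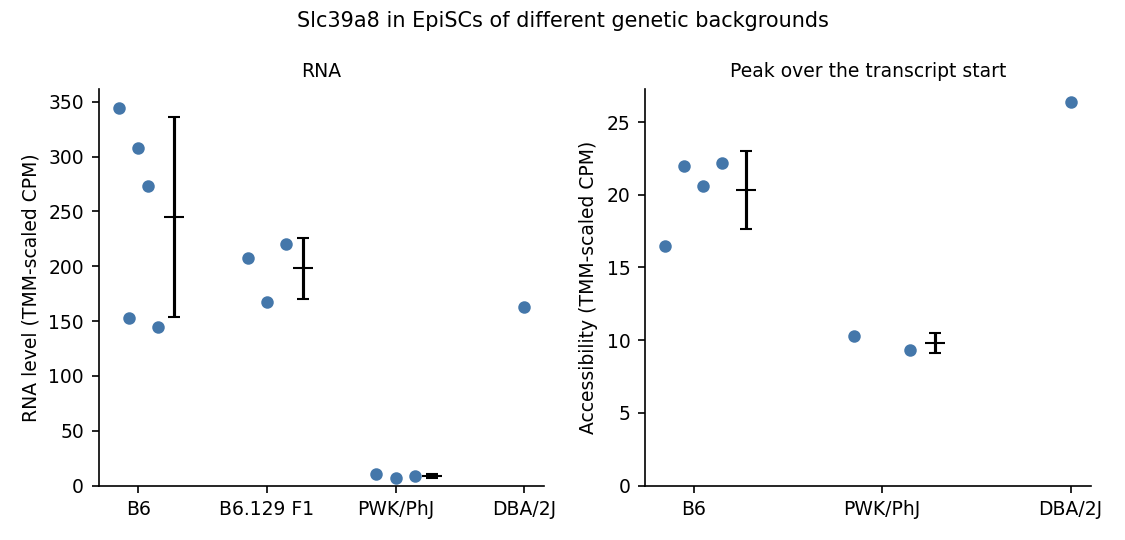
Slc39a8 RNA (left) and accessibility of the peak over its second listed start (right), in TMM-scaled CPM, by EpiSC background, with 1 point per library and bars of mean ± SD beside groups of 2 or more. PWK/PhJ libraries lie at 7.19 to 11.1 CPM of RNA and 9.33 to 10.3 CPM of accessibility, below all B6 libraries in both.

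The other calls in PWK/PhJ were small. Slc39a14 was at 89.5, 98.0 and 89.6 CPM in PWK/PhJ and at 110.0 to 153.0 CPM in B6 (-0.53 log2 units, SE 0.10, adjusted p = 0.0036, edgeR). Slc39a10 was at 145.8 to 166.8 CPM and at 170.1 to 221.9 CPM in B6 (-0.33 log2 units, SE 0.09, adjusted p = 0.017, edgeR), and it missed the threshold without either of 2 PWK/PhJ libraries, the labelled one with the higher replicate number (adjusted p = 0.075) and the unmatched one (adjusted p = 0.096). Slc40a1 was at 30.03, 29.5 and 26.2 CPM in PWK/PhJ and 15.7 to 19.8 CPM in B6, 0.76 log2 units higher (SE 0.13, adjusted p = 0.0019, edgeR). Ferroportin RNA was thus 1.69-fold higher in PWK/PhJ EpiSCs than in B6, against 6.17-fold in B6 endoderm. Mt2 was at 22.2, 41.3 and 29.4 CPM in PWK/PhJ and 14.1 to 30.3 CPM in B6, and its 0.77 log2 units (SE 0.32) were not called (adjusted p = 0.096, edgeR), but were without B6 replicate 51 (1.04, adjusted p = 0.013). Feeder markers summed to 2154 to 3007 CPM in PWK/PhJ and 69.5 to 2699 CPM in B6, and their part in these values was not tested. Tfrc, Slc11a2, Slc30a1, Mt1 and Fth1 differed by -0.13 to 0.33 log2 units and were not called.

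**Figure D5:**
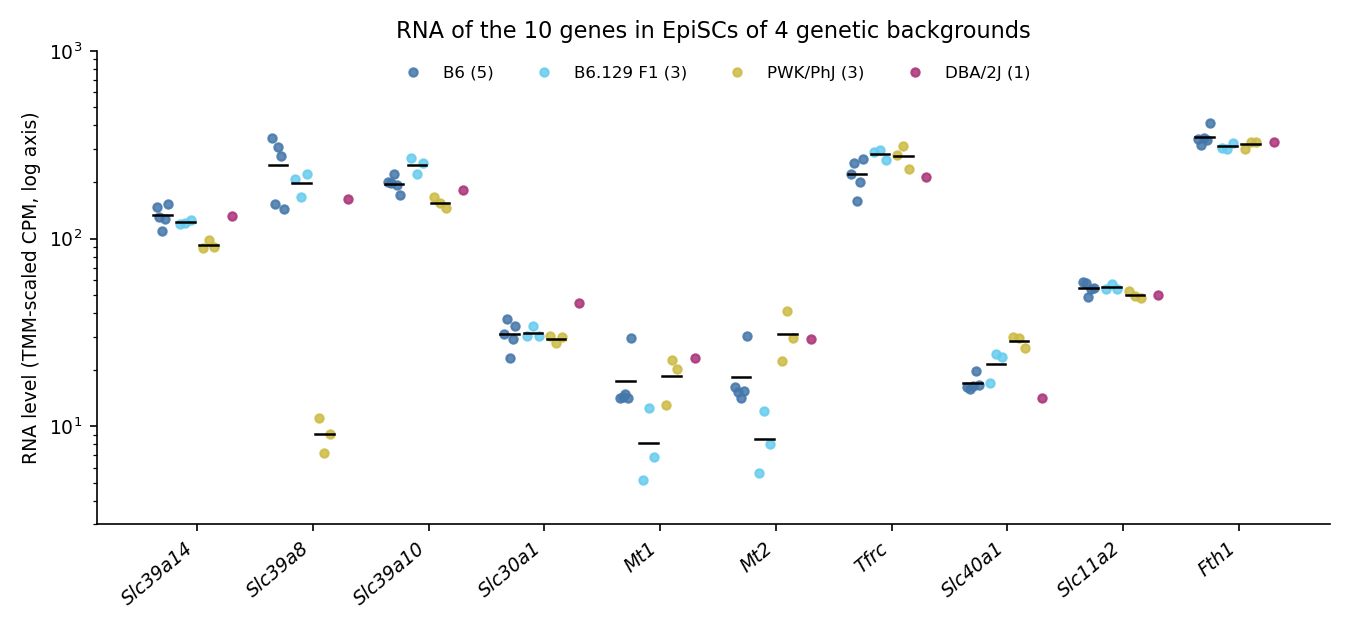
RNA level of each gene (TMM-scaled CPM, log axis) in EpiSCs of 4 backgrounds, with the number of libraries in the key and a bar at each mean. Slc39a8 in PWK/PhJ (7.19 to 11.1 CPM) is the one group set far apart, and the F1 libraries are lowest for Mt1 and Mt2.

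Near the 10 genes, 75 of the 181059 peaks of the EpiSC table were found and 62 were tested between PWK/PhJ and B6. By edgeR 2 were lower, 0 higher and 60 not called, where 5.11% of all 137667 tested peaks were called, 3.68% lower and 1.42% higher. At an unadjusted p under 0.05 there were 13, and DESeq2 called 2 lower and 0 higher. The shares of all peaks under these other rules are not given here, so 5.11% is not the background of the 13. The other call was chr16:32637233-32637498, 4439 bases beyond Tfrc, at 11.0 and 8.35 CPM in PWK/PhJ and 18.2 to 24.5 CPM in B6 (-1.08 log2 units, SE 0.24, adjusted p = 0.015, edgeR). That call was lost without the unmatched PWK/PhJ library (adjusted p = 0.15) or without B6 replicate 1 (adjusted p = 0.0503). Peaks over the starts of Mt1, Mt2, Tfrc, Fth1 and Slc39a10 differed by -0.47 to 0.33 log2 units and were not called.

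Among the other pathway genes, Ftl1 stood out in PWK/PhJ. The ferritin light chain was at 392 ± 25.5 CPM (SD, n = 3) against 1558 ± 324 CPM in B6 (SD, n = 5), a difference of -1.98 log2 units (SE 0.17, adjusted p = 1.4e-05, edgeR), while Fth1 differed by -0.13 (SE 0.09). Ftl1 has close copies in the genome, and 1 genome build is named for all strains. The part of shared reads and of PWK/PhJ sequence differences in the Ftl1 value was not tested. Ncoa4 was lower by 0.49 log2 units (SE 0.15, adjusted p = 0.030), Nfe2l2, the gene of the stress regulator NRF2, was higher by 0.45 (SE 0.08, adjusted p = 0.0021), and Pcbp2 was higher by 0.30 (SE 0.09, adjusted p = 0.039), all by edgeR. The calls of Ncoa4 and Pcbp2 were lost on leaving out any 1 PWK/PhJ library. In all, 2 of 12 storage and regulation genes were higher and 2 lower, 1 of 13 transport genes was lower (Slc46a1, -1.46 log2 units, SE 0.21, adjusted p = 0.00064, too weak for the naming rule and named after its values were seen), and 1 of 7 ZnT genes was higher (Slc30a4, 0.28 log2 units, SE 0.08, adjusted p = 0.029, lost in the same way). Neither Mt3 nor Mtf1 was called by edgeR or DESeq2, with 1 at an unadjusted p under 0.05. None of the 9 other ZIP genes was called by edgeR, with 4 at an unadjusted p under 0.05, and DESeq2 called 4 higher and 0 lower, opposite in direction to the 3 importers among the 10. The shares of all genes at an unadjusted p and under DESeq2 are not given here.

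In F1 against B6 EpiSCs no gene of the 10 was called by edgeR, where 2.84% of all genes were, 1.34% higher and 1.50% lower (421 genes). That count was 0 without the unmatched F1 library, at most 227 on leaving out any other F1 library, any PWK/PhJ library or B6 replicate 4, 44 or 51, 757 without B6 replicate 2 and 1952 without B6 replicate 1. At an unadjusted p under 0.05 there were 5 of the 10, and the share of all genes at that threshold is not given here. DESeq2 called 1 of the 10 higher (Slc39a10) and 2 lower (Mt1 and Mt2), where it called 2000 of all 14822 genes. Both metallothioneins were lower in all 3 F1 libraries than in any B6 library. Mt1 was at 5.18, 12.5 and 6.84 CPM in F1 and 14.1 to 29.6 CPM in B6 (-1.13 log2 units, SE 0.36, adjusted p = 0.099, edgeR). Mt2 was at 5.65, 12.1 and 8.00 CPM in F1 and 14.1 to 30.3 CPM in B6 (-1.13 log2 units, SE 0.34, adjusted p = 0.086, edgeR). The groups of these 2 genes did not overlap, as for 15.3% of all genes tested. Feeder markers summed to 145.1 to 227.7 CPM in F1, below 4 of the 5 B6 libraries. Of these 8 markers edgeR called 0 and DESeq2 7 lower, and all 8 had an unadjusted p under 0.05. In B6 replicate 1 these markers summed to 69.5 CPM, Mt1 was at 14.2 CPM and Mt2 at 16.2 CPM. The part of feeder RNA in the metallothionein values was not tested. Of the other pathway genes only Fbxl5, which targets iron regulatory protein 2 for breakdown, was called, 0.47 log2 units higher (SE 0.10, adjusted p = 0.042, edgeR), and this was lost without most of the single libraries.

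The single DBA/2J libraries allow no test. For RNA, 8 of the 10 genes were inside the B6 range, Slc30a1 was above it (45.3 CPM against 23.1 to 37.1 CPM) and Slc40a1 below it (14.2 CPM against 15.7 to 19.8 CPM). Over all genes tested, 19.4% were above and 20.9% below that range. For ATAC, 15 of the 62 peaks near the genes were above the B6 range and 15 below it, beside 20.7% and 25.2% of all peaks. The peaks above it included those over the starts of Slc39a8 and Mt2 (20.2 CPM against 7.65 to 16.1 CPM) and of Tfrc (46.3 CPM against 34.9 to 45.5 CPM).

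Over the 12 EpiSC RNA libraries of all 4 backgrounds, Mt1 and Mt2 varied together (Pearson r = 0.93 on log2 CPM), as did Slc39a14 and Slc39a8 (r = 0.81), and Slc39a10 varied against Mt2 (r = -0.95). The same pairs had r = 0.45, -0.56 and -0.65, in that order, over the 9 B6 EpiSC and endoderm libraries. These pairs were chosen after their values were seen. The 12 EpiSC libraries share strain groups and scaling, so the values over them are descriptions. Among named genes, the one most like Slc39a8 was Cnga3 (r = 0.99), a channel subunit gene, the one most like Mt1 was Dad1 (r = 0.94), and the one most like Mt2 was Syne1 (r = 0.97). For Slc40a1 it was Rnf224 (r = 0.94), for Tfrc Wdr76 (r = 0.97), for Fth1 Esd (r = 0.88), for Slc39a14 Cyp4f16 (r = 0.94), and for Slc39a10 Mrps30 (r = 0.98). Slc30a1 was most like Exo1 (r = 0.95), and Slc11a2 most like Washc4 (r = 0.95) while spanning only 0.29 log2 units over the 12 libraries.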

How the data were processed

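Poly(A) RNA-seq and ATAC-seq of mouse EpiSCs and endoderm were deposited by the authors as tables of raw read counts per gene or per peak. Per the submitters' processing notes, fastp, Salmon, featureCounts, Bowtie2, MACS2 and DESeq2 were used with build mm10, with no versions, so which tool made which counts is not given in the sources used here. Of the 29555 gene identifiers, 29270 had a symbol, and 17 columns of other samples were not used. Columns whose names match no replicate label were treated as replicates of the group they name. The 3 PWK/PhJ endoderm samples were not analysed here. No replicate pair agreed within counting noise (lowest chi-square per feature 10.2 for RNA and 2.87 for ATAC).

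Counts were filtered with filterByExpr, scaled by TMM and tested with edgeR 4.0.16's robust quasi-likelihood test (R 4.3.3) over each whole table, with Benjamini-Hochberg adjusted p under 0.05 as the call. The SE is the log2 change divided by the square root of F. The code was tested on simulated data. Strain tests used all EpiSC groups of a table for the spread. Alternatives were other scalings, DESeq2 1.42.0, other filters and windows, a replicate block and leaving out each library. The 10 genes, the lists and the tests were chosen with earlier results of these data known.

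All 10 genes are named. From each pathway list, up to 3 called genes per direction with a mean of at least 3 log2 CPM are named, by size of change. Peaks named are the most accessible within 2 kb of either gene end and, within 10 kb, the largest called rise and fall at or above the median level. The most similar gene is that with the highest Pearson r, leaving out numbered gene models. Promoter windows are from RefSeq (GRCm38.p6).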

Additional observations from a re-analysis of the deposited data

Results flagged for a closer look

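Of 60 groups of 4 or more libraries checked for a library far from the rest, 5 held one, where chance gives about 1 in 20. Mt1 and Mt2 RNA in B6 EpiSC replicate 51 were at 29.1 and 29.7 CPM, above the other libraries (13.6 to 14.6 and 13.8 to 15.5 CPM). That library also had the highest feeder marker sum (2650 CPM), whose part in these values was not tested. Slc40a1 RNA in B6 EpiSC replicate 44 was at 19.3 CPM, above 15.3 to 16.3 CPM in the others. The weak Slc39a10 peak chr1:46808712-46808819 was at 0.412 CPM in endoderm replicate 2, where the other endoderm libraries were at 0, and at 5.10 CPM in EpiSC replicate 44, where the others were at 1.39 to 1.60 CPM.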

How the results depend on the processing

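Slc30a1 RNA in endoderm (0.00 log2 units) was -0.0387 with RLE scaling, -0.0391 with DESeq2, -0.11 by total library size, -0.0275 with no filter, -0.0544 with at least 10 counts in every library and -0.0047 with shared-number libraries only. Mt2 RNA (0.03) was -0.0155, -0.0127, -0.13, -0.00565, -0.0356 and -0.0156 under the same settings. The Slc30a1 peak (0.05) was -0.00498 with RLE, -0.17 by total size, -0.000635 with DESeq2 and -0.0145 with shared-number libraries, the Mt1 peak (-0.09) was 0.0154 with the latter, and the Mt2 peak (0.06) was -0.15 by total size and -0.11 with shared-number libraries. In F1, Slc30a1 (-0.01) was 0.00107 with no filter, and in PWK/PhJ the Slc11a2 peak (-0.02) was 0.0732 by total size and 0.0299 with at least 10 counts. The cause was not tested. DESeq2 called 2 of the 10 genes higher in PWK/PhJ against 1, and in F1 it called 1 higher and 2 lower against 0 and 0, with 2000 genes in all against 421; fitting only the groups compared gave 0 genes in F1 (2779 at an unadjusted p under 0.05). Requiring 10 counts in every library, which tests fewer peaks, left 18012 of 65604 endoderm peak calls, 8 higher and 4 lower near the genes, and 2110 of 7030 PWK/PhJ calls. Within 2 kb there were 5 higher and 4 lower peaks in endoderm and 0 lower in PWK/PhJ, and within 50 kb 30 higher and 23 lower, and 1 higher and 8 lower.

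Leaving out each library in turn moved Slc30a1 RNA in endoderm from -0.21 to 0.17 and Mt2 from -0.79 to 0.34, and the Slc30a1 peak from -0.23 to 0.0635 and the Mt2 peak from -0.31 to 0.17. In PWK/PhJ it gave 2446 to 4904 genes, 1 to 2 of the 10 higher, 3632 to 6781 peaks, 0 to 2 peaks lower near the genes, and ranges of -0.0801 to 0.38 for Mt1, -1.32 to 0.0954 for Slc39a10 peak 46808712, -0.0714 to 0.12 for Slc39a10 peak 46853399, -0.048 to 0.32 for the Slc40a1 peak and -0.26 to 0.17 for the Slc11a2 peak. In F1 it gave 0 to 1952 genes (2403 at an unadjusted p under 0.05 where edgeR called 0), 0 to 1 of the 10 higher, -0.10 to 0.0639 for Slc30a1 and -0.0702 to 0.0368 for Slc11a2.

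Replicate numbers recur across states, but same-numbered RNA libraries correlated by 0.07 to 0.19 and ATAC libraries by -0.01 to 0.05, so pairing was not established; 3 of 4 RNA endoderm libraries correlated best with their own number. The replicate block left out libraries without a shared number, EpiSC replicate 1 among them. It called 7731 genes in endoderm, against 8197 for the same libraries without it, and 54387 peaks against 61343. With the replicate block, Slc39a8 RNA in endoderm was 0.74 and past the threshold, Mtf1 was -0.46 (adjusted p = 0.084, edgeR), the Slc11a2 peak at 100424082 was 0.94 (adjusted p = 0.17, edgeR), Slc30a1 was -0.0633, Mt2 was -0.42, the Slc30a1 peak was -0.0117 and the Mt2 peak was -0.14. By total size, the share of called genes that were higher moved from 45.4% to 56.6% in PWK/PhJ and from 47.3% to 37.6% in F1, and of endoderm peaks from 56.6% to 47.6%, with medians over all features of -0.10 for endoderm RNA, -0.22 for endoderm peaks and 0.12 for PWK/PhJ peaks.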
